A study of Mus musculus with 6 samples.

Results

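The 9 genes described here encode the cytokines and chemokines through which natural killer (NK) cells act on other immune cells: Ifng, Tnf, Csf2, Ccl3, Ccl4, Ccl5, Xcl1, Lta and Ltb. They were chosen by gene symbol, and all 9 were found among the 14490 genes of the deposited mRNA-seq table. The table compares splenic NK cells of Mettl3fl/fl mice (WT) with those of Ncr1Cre-Mettl3fl/fl mice (cKO), all on a C57BL/6 background, with 3 samples per genotype. Both genotypes carry the floxed Mettl3 alleles, and the Cre allele at the Ncr1 locus is found in cKO mice only, so that deletion of Mettl3, the catalytic subunit of the m6A RNA methyltransferase, and carriage of Cre cannot be told apart. Ncr1 encodes NKp46, which other innate lymphoid cells can also express, so the deletion is not limited to NK cells by definition. The labels give no treatment and no age for the mice, and the methods give a single age range, of young mice, for all mice of the study. Nothing in the labels says how many animals gave each sample, so the p-values measure the spread between these samples, which may be technical.

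NK cells kill target cells directly and also release soluble mediators within hours of activation. Interferon-gamma, the product of Ifng, activates macrophages and raises antigen presentation. The chemokines CCL3, CCL4 and CCL5 attract T cells, monocytes and further NK cells, and XCL1 attracts cross-presenting dendritic cells through XCR1. TNF, lymphotoxin-alpha (Lta) and lymphotoxin-beta (Ltb) form a family of their own, and GM-CSF, the product of Csf2, acts on myeloid cells. Many of these mRNAs are short-lived because of AU-rich elements in their 3' untranslated region (UTR), which are read by decay factors of the ZFP36 family.

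In cKO NK cells 5 of the 9 genes were higher, 1 was lower and 3 did not pass the test. Tnf and Ltb differed most, by 72.6% and 56.3% of their WT means, while Ccl4, Ifng and Ccl3 were higher by 18.0%, 11.8% and 7.64%. Ccl5, the most abundant of the 9, was lower by 19.4%. Xcl1, Csf2 and Lta did not pass. The test was limma with a variance trend on log2(normalized count + 1), two-sided, and a gene was called at a Benjamini-Hochberg adjusted p under 0.05 over all genes. A normalized count is the number of reads on a gene divided by the size factor of its sample. By this rule 36.6% of all genes were called, 17.8% higher and 18.8% lower in cKO, with small differences often called. SE is the standard error of a log2 fold change, and CI its confidence interval. The values of the 2 genotypes did not overlap for 6 of the 9 genes, and for 45.7% of all genes.

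**Figure D1:**
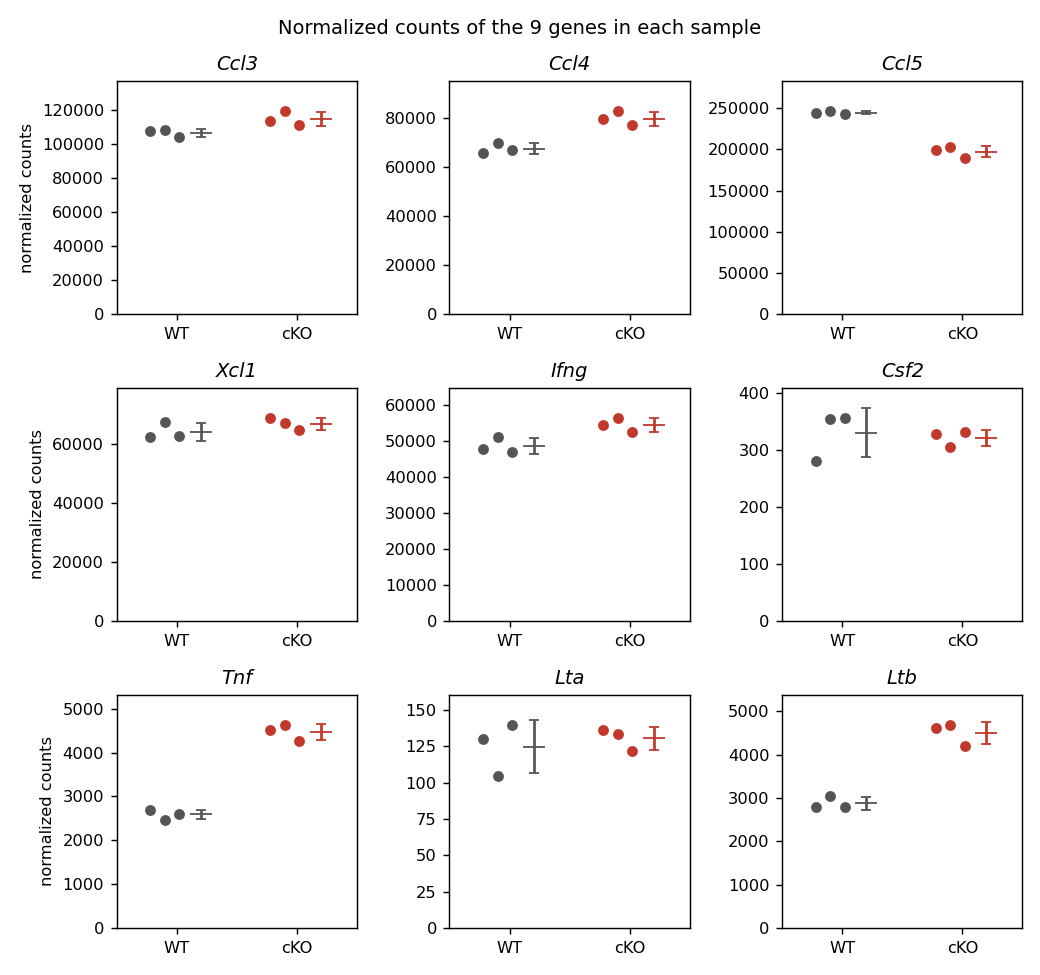
Normalized counts (vertical axes, each from 0) of the 9 genes in the 3 WT samples (gray) and 3 cKO samples (red), with each point a sample and the bars the mean ± SD. The cKO samples lie above all WT samples for Tnf, Ltb, Ccl4, Ifng and Ccl3 and below them for Ccl5, and the genotypes overlap for Xcl1, Csf2 and Lta.

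Mettl3, the deleted gene, had 1192 to 1303 normalized counts in WT and 297 to 405 in cKO. All 12 NK cell markers of a fixed list were in the table, with summed levels of 1025375 to 1062258 normalized counts in WT and 968302 to 1015785 in cKO. T cell markers were low apart from Cd28, with 126 to 189 normalized counts of Cd3e, a T cell receptor subunit, over the 6 samples, and Cd8b1 and Themis were not in the table. B cell markers were low, but 8 of the 9 in the table were higher in cKO, against 17.8% of all genes. Their summed levels were 1379 to 1417 in WT and 1936 to 1997 in cKO, and Vpreb3 was not in the table. The number called was 5 without cKO sample 1 and also without cKO sample 3. Between 55965515 and 71464042 reads per sample fell on the listed genes, and the 9 genes took 0.792% to 0.829% of the normalized counts. Because these are bulk samples, fewer cells that express a gene and less RNA per cell cannot be told apart.

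The sequence elements that are known to set the lifetime of cytokine mRNAs differed between the 9 transcripts and are shown here for the genes that carry them. In the principal coding transcript of each gene in the GENCODE annotation of GRCm38, the 3' UTR of Csf2 held 9 copies of the pentamer ATTTA, counted with overlaps, that of Tnf 8, that of Ifng 6, that of Ccl3 5, that of Lta 3, that of Ccl4 2 and that of Xcl1 1. The 3' UTRs of Ccl5 and Ltb held 0 copies. The 30 bases with the most copies in 6 of these 3' UTRs are shown with the pentamers in capitals.
Tnf: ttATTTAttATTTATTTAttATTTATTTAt
Csf2: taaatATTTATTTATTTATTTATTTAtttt
Ifng: cctATTTAttaatATTTAaaactATTTAta
Ccl3: ttgaaattttATTTAATTTAatcctattgg
Lta: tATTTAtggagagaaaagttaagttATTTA
Xcl1: ttataagtaataaatATTTAttattgatga
The windows of Tnf and Csf2 hold only A and T. In Csf2 the copies overlap in a single run, and in Tnf some overlap and others are parted by tt. In Ifng they stand apart, and in Xcl1 a single copy stands in the window. Among 3' UTRs within 25% of the same length, 0.283% held at least as many copies as Tnf, 0.0870% as many as Csf2, 0.976% as many as Ifng and 0.937% as many as Ccl3, against 12.6% for Ccl4 and 21.0% for Xcl1. For the 2 genes without a copy, 23.3% of 3' UTRs as long as that of Ltb and 26.9% of those as long as that of Ccl5 held 1 or more. Of the genes called higher, Tnf held 8 copies, Ifng 6, Ccl3 5, Ccl4 2 and Ltb 0. Ccl5, called lower, held 0, and Csf2 with 9, Lta with 3 and Xcl1 with 1 did not pass. Any part of these copies in the differences between genotypes was not tested.

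The consensus of m6A sites, known as DRACH, was counted in the same transcripts as a second element, since METTL3 writes that mark. There were 31.3 matches per kb in Ccl3, 30.6 in Xcl1, 27.5 in Csf2, 27.3 in Ifng, 24.6 in Lta, 21.4 in Tnf, 19.0 in Ltb, 16.7 in Ccl4 and 13.2 in Ccl5, where the median of all transcripts was 20.1. A match is a run of letters and not a methylated site, and methylation was not measured in these samples.

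The chemokine genes were the most abundant of the 9. Per kb of exon, Ccl5 had 254566 ± 1400 (SD, n = 3) normalized counts in WT. By the mean of all 6 samples it ranked 2 among the 14073 genes with a known length. Among the 9 genes it was followed in WT by Ccl3 with 139268 ± 3098 per kb and Xcl1 with 122849 ± 5751. Next came Ccl4 with 102493 ± 3130 and Ifng with 37611 ± 1626 (SD, n = 3 for each). Ltb with 1899.7 ± 98.0, Tnf with 1580.0 ± 66.9, Csf2 with 413 ± 53.7 and Lta with 90.2 ± 13.0 normalized counts per kb were far lower. No neighbors in this order overlapped in WT. In cKO the order of the mean levels was the same, but Xcl1 and Ccl4 overlapped, with 123715 to 131652 and 116756 to 125435 normalized counts per kb, and so did Ltb and Tnf, with 2775 to 3089 and 2600.0 to 2824. The length used is that of all annotated exons of a gene, which for Ccl5 is 960 bases against 532 in its principal transcript, so levels per kb depend on which transcripts are present.

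Ccl5 (minus strand of chromosome 11, bases 83525778 to 83530518 of GRCm38) gave normalized counts of 244308, 245763 and 243079 across WT samples 1, 2 and 3, against 198823, 202932 and 189424 across cKO samples 1, 2 and 3. All cKO samples were below all WT samples, and the cKO samples spread more widely. The mean was 244383 ± 1344 (SD, n = 3) for WT against 197059.9 ± 6924 (SD, n = 3) for cKO. On the log2 scale the difference of cKO from WT was −0.31 (SE 0.0312, 95% CI −0.38 to −0.25, adjusted p = 1.03e-08 by limma). It was the sole called fall among the 9 genes.

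Ccl4 and Ccl3, which encode the closely related chemokines MIP-1beta and MIP-1alpha, lie 13229 bases apart on chromosome 11, Ccl3 from 83647844 to 83649355 on the minus strand and Ccl4 from 83662584 to 83664683 on the plus strand. Ccl4 had 65997, 69963 and 66977 normalized counts over the WT samples and 79567, 82787 and 77059 over the cKO samples. The genotypes did not overlap, and cKO exceeded WT by 0.24 on the log2 scale (SE 0.0319, 95% CI 0.17 to 0.30, adjusted p = 1.19e-06 by limma).

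Ccl3 had 107526, 108513 and 103999 normalized counts in WT and 113881, 119236 and 111373 in cKO. The genotypes did not overlap but lay close together, with an SD of 2373 in WT and 4017 in cKO. On the log2 scale the difference of cKO from WT was 0.11 (SE 0.0312, 95% CI 0.042 to 0.17, adjusted p = 0.00864 by limma), and the call was lost without WT sample 3 (log2 fold change 0.088, adjusted p = 0.0561) and without cKO sample 2 (log2 fold change 0.078, adjusted p = 0.0615). The transcripts of Ccl3 and Ccl4 share no run of bases longer than 9.

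Xcl1, on chromosome 1 from 164931644 to 164935527 on the minus strand, gave 62357, 67718 and 62675 normalized counts for WT and 68854, 67236 and 64703 for cKO. The highest WT sample lay within the cKO range. On the log2 scale the difference of cKO from WT was 0.060 (SE 0.0334, 95% CI −0.0090 to 0.13, adjusted p = 0.173 by limma). With the samples scaled to equal totals it was 0.11 with an adjusted p of 0.00778, and without WT sample 2 it was 0.098 with an adjusted p of 0.0237. Of the 523 exon bases of Xcl1, 98 are shared with Gm20743, a noncoding gene on the other strand. Gm20743 had 19206 to 20032 normalized counts in WT and 32911 to 33437 in cKO, a difference of 0.75 on the log2 scale (adjusted p = 1.43e-16 by limma). The methods do not say whether reads were counted by strand, and without strand the reads of the shared bases cannot be told apart.

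Ifng, on chromosome 10 from 118441046 to 118445892 on the plus strand, encodes the signature cytokine of NK cells. It had 47977, 51081 and 47063 normalized counts over the WT samples and 54450.0, 56408 and 52553 over the cKO samples. Every cKO sample was above every WT sample. The means were 48707 ± 2106 (SD, n = 3) and 54470.2 ± 1927 (SD, n = 3), which differ by 0.16 on the log2 scale (SE 0.0333, 95% CI 0.093 to 0.23, adjusted p = 0.000350 by limma). Of its 1295 exon bases, 336 are shared with the uncharacterized transcript Gm49751 on the same strand, which was not analysed here.

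Csf2, on chromosome 11 from 54247271 to 54249667 on the minus strand, was expressed at a low level. It had 281, 355 and 356 normalized counts in WT and 328, 305 and 332 in cKO. WT sample 1 was the lowest of all 6 samples, and the cKO values lay inside the WT range. The log2 fold change was −0.031 with a 95% CI of −0.28 to 0.21 (adjusted p = 0.871 by limma). Differences across that interval are compatible with these samples. The sign of the estimate changed with equal totals, where the log2 fold change was 0.019, and with some samples left out. Of the 800 exon bases of Csf2, 96 are shared with Gm12223, an antisense gene that was not in the table.

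**Figure D2:**
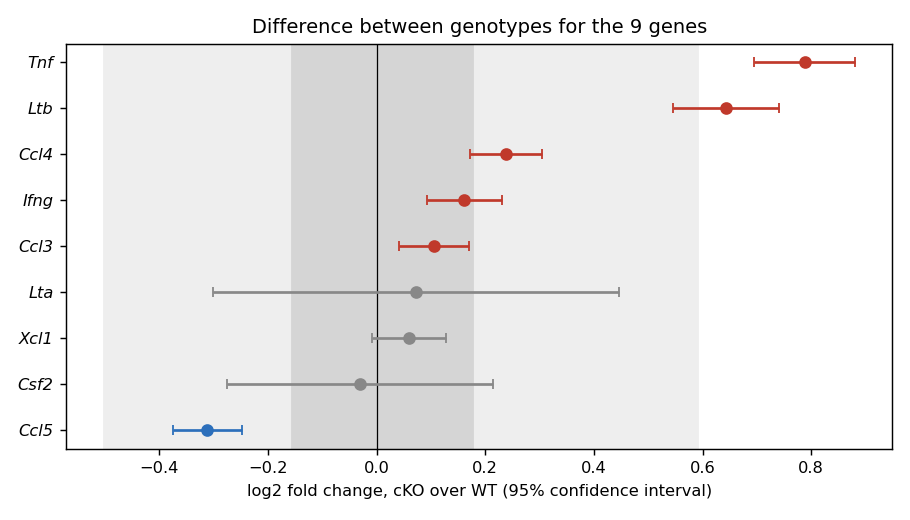
Log2 fold change of cKO over WT (horizontal axis) for the 9 genes, with limma's 95% CI, in red for genes called higher, blue for lower and gray for not called. The dark and light bands hold the middle 50% and 90% of all genes, and only Tnf (0.79) and Ltb (0.64) have estimates outside the light band, whose upper edge is at 0.59.

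Tnf, Lta and Ltb stand side by side on chromosome 17, within the major histocompatibility complex. Ltb lies from 35194439 to 35196320 on the plus strand, Tnf from 35199381 to 35202007 on the minus strand and Lta from 35203165 to 35205351 on the minus strand. The gaps are 3061 bases between Ltb and Tnf and 1158 bases between Tnf and Lta. No exons of other genes overlap those of the 3 genes in the annotation.

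Tnf gave normalized counts of 2689, 2472 and 2608 across WT samples 1, 2 and 3, against 4522, 4629 and 4261 across cKO samples 1, 2 and 3. All cKO samples were well above all WT samples. The mean was 2589.6 ± 109.6 (SD, n = 3) for WT against 4471 ± 189 (SD, n = 3) for cKO. On the log2 scale the difference of cKO from WT was 0.79 (SE 0.0451, 95% CI 0.69 to 0.88, adjusted p = 2.00e-13 by limma), and 580 genes of the table had a log2 fold change of at least this size in either direction.

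Ltb, the membrane-bound partner with which lymphotoxin-alpha forms the ligand of the lymphotoxin-beta receptor, had 2793, 3052 and 2795 normalized counts in WT and 4609.9, 4684 and 4207 in cKO. The genotypes did not overlap. The mean was 2879.99 ± 149 (SD, n = 3) for WT against 4500.0 ± 257 (SD, n = 3) for cKO, which differ by 0.64 on the log2 scale (SE 0.0472, 95% CI 0.55 to 0.74, adjusted p = 2.90e-11 by limma). B cells also express Ltb, and the summed B cell markers were higher in cKO, as given above. The part of B cells in the difference of Ltb was not tested.

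Lta had 130.1, 105 and 139.6 normalized counts in WT and 136, 134 and 122 in cKO, from 88 to 147 reads per sample. The genotypes overlapped, and WT sample 2 was the lowest. The log2 fold change was 0.073 with a 95% CI of −0.30 to 0.45 (adjusted p = 0.797 by limma). The upper end of this interval is below the lower ends for Tnf and Ltb. Without WT sample 2 the log2 fold change of Lta was −0.048 (adjusted p = 0.884).

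**Figure D3:**
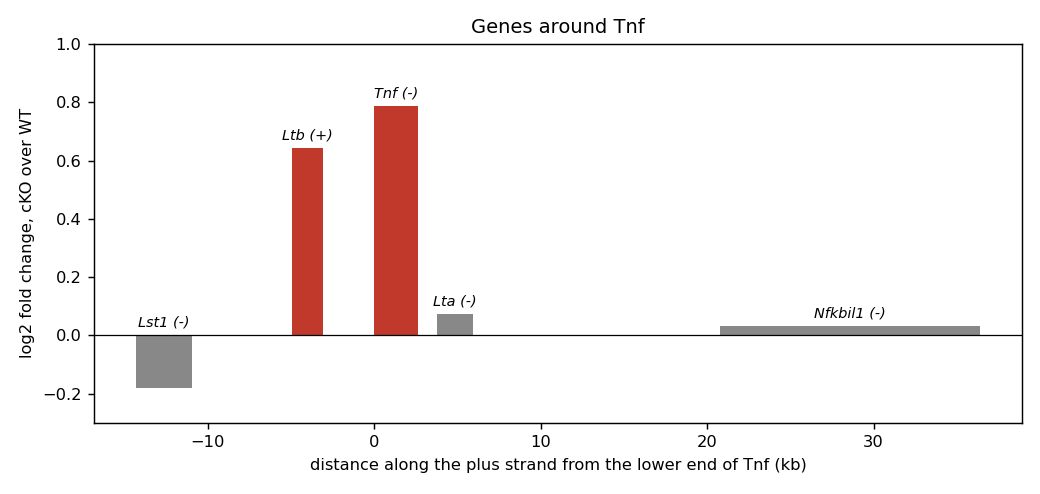
Log2 fold change of cKO over WT (vertical axis) of the genes around Tnf, drawn to scale along the plus strand in kb from the lower end of Tnf, with the strand in brackets, red for genes called higher and gray for genes not called. Ltb (0.64) and Tnf (0.79) rose, while Lta (0.073) between Tnf and Nfkbil1 (0.031), and Lst1 (−0.18) beyond Ltb, did not pass the test.

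The 250 bases before the RefSeq start of Tnf and of Ltb, the neighbors with the largest rises, are shown for the short motifs known to bind factors of lymphocyte activation. They are RefSeq sequences of GRCm38.p6, Tnf at chr17:35202008-35202257 on the minus strand and Ltb at chr17:35194257-35194506 on the plus strand, printed 5' to 3' along the gene. For Ltb the RefSeq start lies inside the longer GENCODE extent given above, so the window holds the GENCODE start. Capitals mark the NFAT core GGAAA and GGANTTTCC, a single form of the NF-kB motif, on either strand.
Tnf: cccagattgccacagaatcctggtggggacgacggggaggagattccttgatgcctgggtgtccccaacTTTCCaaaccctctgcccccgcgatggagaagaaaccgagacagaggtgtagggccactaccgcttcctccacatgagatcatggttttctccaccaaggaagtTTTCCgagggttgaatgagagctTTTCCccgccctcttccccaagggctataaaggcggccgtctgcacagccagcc
Ltb: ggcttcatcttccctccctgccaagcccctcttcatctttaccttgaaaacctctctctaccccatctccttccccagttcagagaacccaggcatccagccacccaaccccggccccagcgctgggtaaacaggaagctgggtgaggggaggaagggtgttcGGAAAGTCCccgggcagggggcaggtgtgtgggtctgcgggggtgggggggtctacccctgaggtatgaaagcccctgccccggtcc
Tnf held 3 copies of GGAAA, all on the reverse strand, and Ltb held 1, which is part of its copy of GGANTTTCC. Of 27025 promoters of the same length, 55.6% held GGAAA and 1.05% held GGANTTTCC. Neither promoter held the AP-1 motif TGANTCA, which 6.87% of promoters did. Among the 7 of the 9 genes with a promoter in the table of sequences, Ltb alone had GGANTTTCC in this window. Other forms of the NF-kB motif were not searched, so the other promoters may hold them.

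Ratios of 2 of the genes within a sample do not depend on the scaling between samples, so 5 ratios were compared. Each difference equals that between the log2 fold changes of the 2 genes given above, so it is no separate evidence. The log2 ratio of Tnf to Lta was 4.21 to 4.55 in WT and 5.04 to 5.12 in cKO, a difference of 0.71. That of Lta to Ltb fell by 0.57, from between −4.85 and −4.31 to between −5.12 and −5.07. The log2 ratio of Ccl5 to Ccl4 was 1.81 to 1.89 in WT and 1.29 to 1.32 in cKO, a difference of −0.55, and that of Ifng to Tnf was 4.16 to 4.37 in WT and 3.59 to 3.62 in cKO, a difference of −0.63. For the neighbors Ccl4 and Ccl3 the log2 ratios were −0.70 to −0.63 in WT and −0.53 to −0.52 in cKO, a difference of 0.13. None of the 5 ratios overlapped between genotypes (exact permutation test, two-sided, p = 0.1 and adjusted p = 0.1 over the 5 for each, the smallest p that 3 samples against 3 allow, so that none could pass 0.05).

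**Figure D4:**
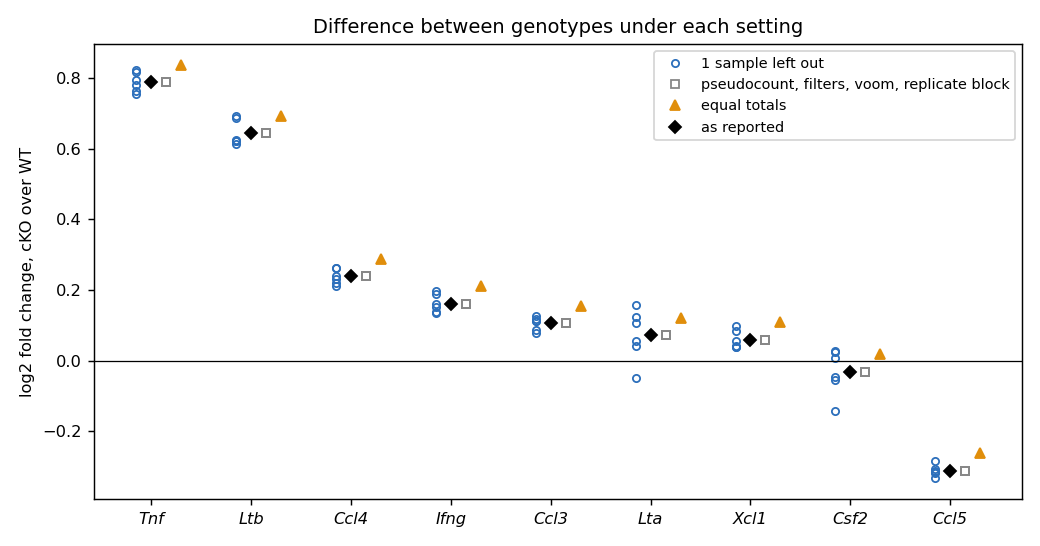
Log2 fold change of cKO over WT (vertical axis) of the 9 genes as reported (black), with 1 sample left out (blue), with other pseudocounts, filters or weights or a replicate block (gray squares), and with equal totals (orange). Tnf, Ltb, Ccl4, Ifng and Ccl3 stay above 0 and Ccl5 below 0 in every setting, Csf2 and Lta cross 0, and equal totals lift all genes by about the same amount.

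Among the receptors for these 9 products more were lower than higher. Of 12 receptor genes in the table, 1 was higher, 5 were lower and 6 did not pass. Over all genes 17.8% were called higher and 18.8% lower. The median log2 fold change of the receptors was −0.084 against 0.0014 for all genes. With equal totals, and also without WT sample 1, only 3 of the 12 were lower. The single rise, of Xcr1, was lost without WT sample 3 or without any 1 of the cKO samples. Tnfrsf1b, which encodes TNF receptor 2, fell from 36899 ± 518 to 26415 ± 144 normalized counts (SD, n = 3 each), a difference of −0.48 on the log2 scale (adjusted p = 5.09e-13 by limma). Ifngr1, the ligand-binding chain of the interferon-gamma receptor, fell from 92881 ± 752 to 74962 ± 1276 (SD, n = 3 each), a difference of −0.31 on the log2 scale (adjusted p = 2.37e-09 by limma). Xcr1, the XCL1 receptor of dendritic cells, had low levels, with 3.90 to 17.9 normalized counts in WT and 22.4 to 35.4 in cKO (adjusted p = 0.0321 by limma).

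Genes that are known targets of TNF and NF-kB signaling were lower in cKO. Of 12 such genes 0 were higher, 10 were lower and 2 did not pass, with a median log2 fold change of −0.54. Over all genes 18.8% were called lower. With equal totals 1 of the 12 was higher and 10 were lower. Nfkb1, Nfkb2 and Relb are in this list and also in that of transcription factors below, so the 2 lists are not separate. Cd83, an activation marker, fell from 20794 ± 188 to 10387 ± 305 normalized counts (SD, n = 3 each), a change of −50.0% (adjusted p = 2.66e-18 by limma). Traf1, a signaling adaptor of TNF receptors, fell from 47685 ± 184 to 30031 ± 55.8 (SD, n = 3 each), a difference of −0.67 on the log2 scale (adjusted p = 5.44e-16 by limma). Of 20 targets of interferon-gamma, 2 were higher, 7 lower and 11 did not pass, with a median of 0.019, and with equal totals 4 were higher and 6 lower. Among them Socs1, a feedback inhibitor, rose with a difference of 0.53 on the log2 scale (adjusted p = 4.94e-11 by limma), as did Igtp with 0.27, and Gbp3 and Gbp2, which encode guanylate-binding proteins, fell with −0.84 and −0.57.

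Of 14 receptors that induce the 9 genes, 2 were higher, 6 lower and 6 did not pass, and with equal totals 3 were higher and 4 lower. For this list and the next, the shares called over all genes were 17.8% higher and 18.8% lower. Il2rb and Il18r1 rose by 0.14 and 0.12 on the log2 scale, and Ncr1 and Klrb1c fell by 0.40 and 0.27. The Cre allele lies in Ncr1 itself. Of 22 transcription factors of the 9 genes, 5 were higher, 5 lower and 12 did not pass, but with equal totals 11 were higher and 4 lower. Fos, a subunit of AP-1, rose by 0.82 on the log2 scale (adjusted p = 8.01e-17 by limma), and Nfatc2, which acts with AP-1 at cytokine genes, had 0.33 (adjusted p = 2.47e-07 by limma). Nfkb2 and Relb, the subunits of noncanonical NF-kB, both fell, each by 0.55 on the log2 scale (adjusted p = 5.07e-14 and 2.09e-13 by limma). The NF-kB subunits Rela and Rel also fell, by 0.43 and 0.29 (adjusted p = 2.57e-11 and 3.73e-08 by limma), while Nfkb1 did not pass.

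The list of 12 decay factors of cytokine mRNA also holds Elavl1, whose product stabilizes mRNAs. Of the 12 genes, 6 were higher, against 17.8% of all genes, 2 were lower and 4 did not pass. Their median log2 fold change was 0.17. The number lower was 1 with equal totals and without WT sample 1 or 2 or cKO sample 1 or 2. Zfp36, which encodes tristetraprolin and binds the pentamers shown above, was among the most abundant mRNAs, with 284288 ± 5998 normalized counts in WT and 330845 ± 6204 in cKO (SD, n = 3 each), a difference of 0.22 on the log2 scale (adjusted p = 2.69e-06 by limma). Zfp36l2, of the same family, rose by 0.17 on the log2 scale (adjusted p = 7.51e-05 by limma). Zc3h12a, the gene of the endonuclease Regnase-1, fell by 0.37 on the log2 scale (adjusted p = 1.39e-10 by limma), and Elavl1, the gene of the stabilizing protein HuR, by 0.11 (adjusted p = 0.0457 by limma).

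Of 44 other cytokine and chemokine genes, 26 were in the table, of which 4 were higher, 6 lower and 16 did not pass, a share near the 36.6% called over all genes. Those outside the table included Il2, Il4, Il5, Il13, Il17a and Il22. Osm, the gene of oncostatin M, rose from 3838 ± 163 to 5589.5 ± 92.8 normalized counts (SD, n = 3 each), a difference of 0.54 on the log2 scale (adjusted p = 3.31e-11 by limma), and Tnfsf8, the gene of CD30 ligand, rose with a difference of 1.08 on the log2 scale (adjusted p = 4.06e-05 by limma). Il16 fell with −0.53 (adjusted p = 3.74e-12 by limma), and Fasl, the death ligand of NK cells, fell with −0.38 (adjusted p = 1.95e-09 by limma).

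**Figure D5:**
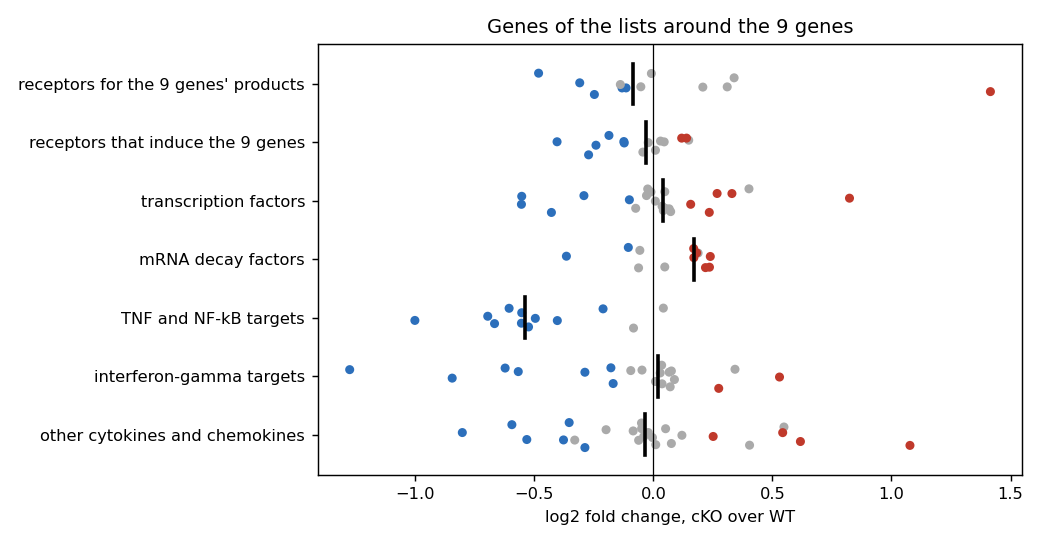
Log2 fold change of cKO over WT (horizontal axis) of the genes in 7 lists around the 9 genes, with each point a gene, red for genes called higher, blue for lower, gray for not called, and the black bar the median of the list. The median of the TNF and NF-kB targets is at −0.54 and that of the mRNA decay factors at 0.17, while those of the other 5 lists lie between −0.084 and 0.039.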

How the data were processed

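Splenic NK cells were sorted by flow cytometry, and polyA RNA was sequenced from 3 WT and 3 cKO samples. Per the submitters' processing notes, the authors used HISAT2 (2.0.5) to map read pairs on GRCm38, counted them per gene with featureCounts (1.5.0-p3) and normalized with DESeq2 (1.16.1). The methods name other releases of HISAT2 and DESeq2, and which made the table is not known. The deposited sample columns hold a signal, the count of each gene divided by the size factor of its sample. The authors also deposited their mean, a log2 fold change, its standard error and Wald statistic as a score each, and p-values, which were not used.

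Values were taken as log2(value + 1) and genes kept with at least 1 in at least 3 samples, which all 14490 passed. limma 3.58.1 in R 4.3.3 was fitted across all genes, checked on simulated data. In each sample the values were multiples of a single step (within 5.5e-05 reads), but count models were not run. Names of 97.1% of genes matched the GENCODE annotation of GRCm38. Elements were counted in the principal transcript.

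The 9 genes and the lists were chosen with earlier results of these data known. Named list genes are the 2 with the lowest p in each direction among called genes, the markers outside the table, and for each called gene of the 9 the one most correlated with it. Cd3e, Gm20743, Lst1, Nfkbil1, Rela, Rel and Nfkb1 were named after their values were seen. The spread within each genotype exceeded counting noise (chi-square over degrees of freedom 5.50 to 8.01). Alternatives were a pseudocount of 0.1, no filter or 1 CPM, equal totals, limma-voom, a replicate block and each sample left out. Some items are not reported here.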

Additional observations from a re-analysis of the deposited data

How the results depend on the processing

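Of the 9 genes, 6 were called as reported, and from 5 to 7 with 1 sample left out or with equal totals. Tnf, Ltb, Ccl4, Ifng and Ccl5 kept their direction and call in all 12 alternatives. With 1 sample left out, the log2 fold change of Ccl3 lay between 0.078 and 0.13, that of Xcl1 between 0.038 and 0.098, that of Csf2 between −0.14 and 0.027 and that of Lta between −0.048 and 0.16. With equal totals, Xcl1 was called at 0.11 and Csf2 stood at 0.019. That scaling moved the median of all genes to 0.051 and the called genes from 2576 higher and 2731 lower to 3487 and 2016. The labels do not say whether the replicate numbers pair the samples. Correlations of same-numbered deviations were small (−0.040, 0.056 and 0.038), though WT samples 2 and 3 were most like the cKO sample of the same number. With a replicate block 6 of the 9 genes and 5543 of all genes were called, and it changed no call among the 9. With 1 sample left out, T cell markers called numbered 1 to 2, B cell markers 5 to 8 (5 without cKO sample 1 and without cKO sample 3) and erythroid and platelet markers 0 to 1. For the other lists the total called, but not its split by direction, stayed within 1.5 times that reported. Equal totals moved the split by direction in most of the lists. They gave 11 higher and 4 lower for transcription factors, 8 and 3 for immediate early genes and 4 and 6 for interferon-gamma targets. For T cell markers they gave 1 and 1, for NK cell markers 3 and 6, and for receptors that induce the 9 genes 3 and 4. The 5 ratios kept their direction, in the alternatives run. The count tests planned with edgeR and DESeq2 were not run. At 88 to 147 reads, counting error limits Lta most.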

Other observations

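Immediate early genes, which respond to activation within minutes and also to cell handling, were very abundant in both genotypes. The 17 genes summed to between 2960950 and 3018282 normalized counts in WT and between 3040667 and 3124613 in cKO. Of them 5 were higher, 7 lower and 5 did not pass, with a median log2 fold change of 0.011. The shares called over all genes were 17.8% higher and 18.8% lower. With equal totals 8 were higher and 3 lower, and 4 were lower without cKO sample 1 and without cKO sample 3. Fos rose as given above, and Dusp1, a MAP kinase phosphatase, rose from 181120.0 ± 4445 to 260907 ± 5455 normalized counts (SD, n = 3 each), a log2 fold change of 0.53 (adjusted p = 3.06e-13 by limma). Nr4a3, an orphan nuclear receptor, fell with −0.41 (adjusted p = 2.28e-11 by limma), and Btg2 fell with −0.28 (adjusted p = 4.66e-08 by limma). Any part of cell handling in the levels of the 9 cytokine and chemokine genes was not tested.

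Genes of NK cell maturation changed without a common direction, where 17.8% of all genes were called higher and 18.8% lower. Of 9 genes of immature NK cells, 2 were higher, 3 lower and 4 did not pass, with Cxcr3 at 0.81 and Il7r at 0.52, and Cd3g at −0.75 and Kit at −0.53 on the log2 scale. Cd3g, like Cd3e, encodes a T cell receptor subunit, and fell from 802 ± 11.1 to 478 ± 23.4 normalized counts (SD, n = 3 each). The part of T cells in this fall was not tested. Of 10 genes of mature NK cells, 4 were higher, 1 lower (2 without WT sample 3) and 5 did not pass. S1pr1 and S1pr5, receptors that guide lymphocytes out of tissues, rose with log2 fold changes of 1.32 and 0.49, and Klrg1, a receptor of terminal maturation, fell with −0.55. The balance of maturation stages was not measured in these samples.

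Among NK cell markers 2 were higher (Tbx21 and Il2rb, with log2 fold changes of 0.23 and 0.14), 7 were lower, among them Ncr1 with −0.40 and Nkg7 with −0.34, and 3 did not pass. Of the 6 myeloid markers that were listed, 2 were higher (Adgre1 and Cd14) and 2 lower (Lyz2 and Marco), with 1 higher without WT sample 2, cKO sample 1 or cKO sample 3, while 0 of 4 markers of other innate lymphoid cells, 0 of 2 of basophils and mast cells and 0 of 3 of erythroid cells and platelets passed the limma test. Markers outside the table included the myeloid markers S100a8, S100a9, Mpo, Elane, Clec9a and Siglech, the innate lymphoid markers Il17rb and Il23r, the basophil and mast cell markers Fcer1a, Ms4a2 and Prss34, and Pf4 and Ppbp of platelets. Of 8 T cell markers 2 were lower, Cd28 and Cd6, and with equal totals 1 was higher and 1 lower. Beside these marker lists, 17.8% of all genes were called higher and 18.8% lower.

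Over the 6 samples, the gene most like Tnf among 6938 others with at least 1000 normalized counts was Ttc4 (Pearson r of log2 values 0.9996), that most like Ltb was Prpf4b (0.999), like Ccl5 Tmcc3 (0.999), like Ccl4 Arpc5l (0.997), like Ifng St13 (0.995) and like Ccl3 Wars (0.996). These are correlations over 6 samples that fall into 2 genotypes, each the highest of all those computed, and are given as a description.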
